A study of Mus musculus with 65 samples.

Results

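Hemoglobin and erythroid genes were taken here as 6 genes, namely the alpha-globin genes Hba-a1 and Hba-a2, the beta-like globin gene Hbb-y, and Slc4a1, Car1 and Alas2. The members were all features whose platform annotation gave 1 of these symbols, which held for 22 of the 8448 features on the filter. Of these, 12 were annotated to Hba-a1, 3 to Hba-a2, 4 to Hbb-y and 1 each to Slc4a1, Car1 and Alas2. Each was a cDNA clone with its own sequence accession, and 0 features held one of the symbols among several. All 22 were tested, with no filter on low values.

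The data were spinal cord RNA of 65 C57BL/6 mice, measured with 1 nylon filter per mouse (filter B of the 17K clone set of the National Institute on Aging, on which cDNA clones are spotted). The mice carried no engineered allele, and the study compared ages, diets and sexes. Mice on caloric restriction (CR) received a ration of fortified feed that was reduced in steps from young adulthood, and the mice fed ad libitum (AL) had regular feed. The juveniles were 10 AL mice of 17 to 44 days. The 6-month mice, of 169 to 194 days, were 8 CR and 10 AL mice, and the 16-month mice, of 472 to 499 days, were 10 CR and 10 AL mice. The 24-month mice, of 673 to 743 days, were 7 CR and 10 AL mice, and the 3 CR males among them were all 673 days old. There were 31 males and 34 females. Tissue was taken after cervical dislocation, and a step that clears blood from the vessels is not given in the sources used here. The samples were whole tissue, so fewer cells of a type and less RNA per cell cannot be told apart.

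Hemoglobin is built from alpha-like and beta-like globin chains, each of which holds a heme group that binds oxygen. Alas2 is the erythroid form of the first enzyme of heme synthesis, Slc4a1 is the band 3 anion exchanger of the red cell membrane, and Car1 is a carbonic anhydrase of red cells. Young red cells still carry globin mRNA after they have lost the nucleus, so blood in a tissue brings these transcripts with it, and alpha-globin mRNA is also known from some neurons and glia. Hbb-y is the embryonic beta-like chain of the yolk sac. The study's own lists name clones of the Hbb-y features Hbb-b1 or Hbb-bh1, so which beta-like chain these features measure is uncertain, and globin genes of high similarity can share hybridization signal.

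The promoters are shown because the members encode parts of 1 cell type's machinery. Whether these sequences bear on the scores was not tested. RefSeq gave promoters on GRCm38.p6 for 4 of the 6 genes. The 250 bases before the annotated start are printed 5′ to 3′ on the gene's strand, with GATA, CACCC and CCAAT in capitals on either strand (reversed as TATC, GGGTG and ATTGG). The motifs found here do not overlap each other.
Hba-a1: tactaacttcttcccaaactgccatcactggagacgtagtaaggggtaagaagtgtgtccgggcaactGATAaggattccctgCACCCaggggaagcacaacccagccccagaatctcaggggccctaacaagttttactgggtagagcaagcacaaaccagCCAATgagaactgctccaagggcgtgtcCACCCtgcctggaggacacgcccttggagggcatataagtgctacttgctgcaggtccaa
Hbb-y: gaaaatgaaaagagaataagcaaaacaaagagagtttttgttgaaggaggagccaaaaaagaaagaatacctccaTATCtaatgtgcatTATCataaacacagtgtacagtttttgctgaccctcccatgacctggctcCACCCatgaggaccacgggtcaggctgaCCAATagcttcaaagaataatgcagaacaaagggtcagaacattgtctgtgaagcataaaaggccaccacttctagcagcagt
Alas2: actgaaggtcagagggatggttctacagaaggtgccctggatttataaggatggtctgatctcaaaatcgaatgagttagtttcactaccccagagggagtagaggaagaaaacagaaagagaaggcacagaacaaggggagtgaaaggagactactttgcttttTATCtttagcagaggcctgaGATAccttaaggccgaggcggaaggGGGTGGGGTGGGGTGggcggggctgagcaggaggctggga
The Hba-a1 window is chr11:32283422-32283671 on the plus strand, the Hbb-y window chr7:103853208-103853457 on the minus strand, and the Alas2 window chrX:150547167-150547416 on the plus strand. Hba-a1 held GATA at -182, CACCC at -167 and -60 and CCAAT at -88 from the start. The Hba-a2 window is the same sequence displaced by 3 bases, with 247 of 247 overlapping bases identical, so it is not printed. Hbb-y held GATA at -175 and -161, CACCC at -111 and CCAAT at -83. Alas2 held GATA at -85 and -65, CACCC at -40, -35 and -30, and no CCAAT in this window. Of 32851 RefSeq promoter windows of this length, 53.6% held GATA, 52.0% CACCC and 33.8% CCAAT, and 8.67% held all 3. These matches are a description of the letters and not of bound sites.

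Each value is a Z score within a filter, on which 0 stands for the average feature of the filter and 1 for the SD over its features. A score depends on the clone as well as on the transcript, and scores of different features are therefore not set against each other. The means over 65 mice of the 12 Hba-a1 features lay between 0.585 (feature 16513) and 0.954 (feature 12659). The Hba-a2 features had means of 0.761 (10328), 0.806 (10504) and 1.65 (11536). The Hbb-y features had means of 0.0785 (10656), 0.283 (10700), -0.543 (10744) and 0.0145 (10788). Slc4a1 averaged -0.286, Car1 -0.559 and Alas2 -1.09. The alpha-globin features were thus above the filter mean, while Slc4a1, Car1 and Alas2 were below it. The expression check of the tissue label was limited, since of 18 neural markers listed only the neurofilament gene Nefl had features, with means of 1.07 and 0.896.

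Before any comparison, the filters themselves were not uniform. Arrays 31, 32 and 33 were taken as apart from the rest, and no measure of this is given here. They were the CR male replicate 2, the CR female replicate 3 and the AL male replicate 3 of 6 months. Arrays 31 and 33 had the lowest alpha-globin means of all mice (0.389 and -0.04), while array 32 was at 0.869, near the median mouse of 0.835. The other 62 fell into 2 sets along the first principal component, 41 arrays in set 1 and 21 in set 2, which the labels do not name. Set 2 held 4 of 10 juveniles, 0 of 8 CR and 1 of 10 AL mice of 6 months, 3 of 10 CR and 4 of 10 AL mice of 16 months, and 3 of 7 CR and 6 of 10 AL mice of 24 months. Age and set were therefore partly confounded. Fitted differences of the members that arrays 31 to 33 moved most are also given without them, and values with array-set means removed are over the 62 mice without these arrays.

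None of the 22 features was called in any of the 15 comparisons by limma with Benjamini-Hochberg adjustment over all features. Few features of the filter were called either. The share of the 8448 features called was 0.13% for 6 months against juveniles and 0.071% for 24 against 6 months in AL mice. It was 0.0237% for 16 against 6 months in AL mice, for 24 against 6 months in CR mice, for CR against AL at 6 months and for CR against AL over the 3 ages. It was 0% for 24 against 16 months in either diet, 16 against 6 months in CR mice, CR against AL at 16 and at 24 months, males against females, older against younger juveniles, the diet difference of the change by 24 months and the sex difference of the CR effect. A member count of 0 is therefore near the background and says little about these genes in particular.

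At an unadjusted p under 0.05 the share of members lay above that of all features in 2 comparisons and below it in 13. For CR against AL over the 3 ages, 3 of 22 features passed (13.6%), against 10.6% of all features. For CR against AL at 6 months it was 2 of 22 (9.09%), against 7.77% of all. The share was 4.55% (1 of 22) for CR against AL at 24 months, against 7.42% of all features, for 24 against 6 months in AL mice, against 12.8%, and for 16 against 6 months in CR mice, against 6.9%. In the other 10 comparisons 0 of 22 members passed, against 0.746% to 13.3% of all features, the highest shares being 13.3% for 16 against 6 months in AL mice and 8.71% for 24 against 6 months in CR mice.

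The alpha-globin chains differed more between mice of 1 group than between groups. The mean of the 15 Hba-a1 and Hba-a2 features was 0.803 ± 0.209 in juvenile AL mice (SD, n = 10), with a lowest value of 0.505, a median of 0.823 and a highest of 1.20. At 6 months it averaged 0.824 ± 0.263 in CR mice (SD, n = 8; 0.389, 0.809 and 1.27) and 0.788 ± 0.330 in AL mice (SD, n = 10; -0.04, 0.828 and 1.16), each triplet being the lowest, median and highest mouse. At 16 months it averaged 0.875 ± 0.162 in CR mice (SD, n = 10; 0.546, 0.870 and 1.08) and 0.841 ± 0.0731 in AL mice (SD, n = 10; 0.721, 0.860 and 0.952). All these groups overlapped. At 24 months it averaged 0.776 ± 0.128 in CR mice (SD, n = 7; 0.525, 0.779 and 0.906) and 0.869 ± 0.272 in AL mice (SD, n = 10; 0.509, 0.849 and 1.35). From lowest to highest, the group means ran CR 24 months, AL 6 months, juvenile, CR 6 months, AL 16 months, AL 24 months and CR 16 months. They spanned 0.0997, against an SD within the 14 groups of 0.230 (0.189 without arrays 31 to 33), so no neighbours in this order differed beyond their spread.

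**Figure D1:**
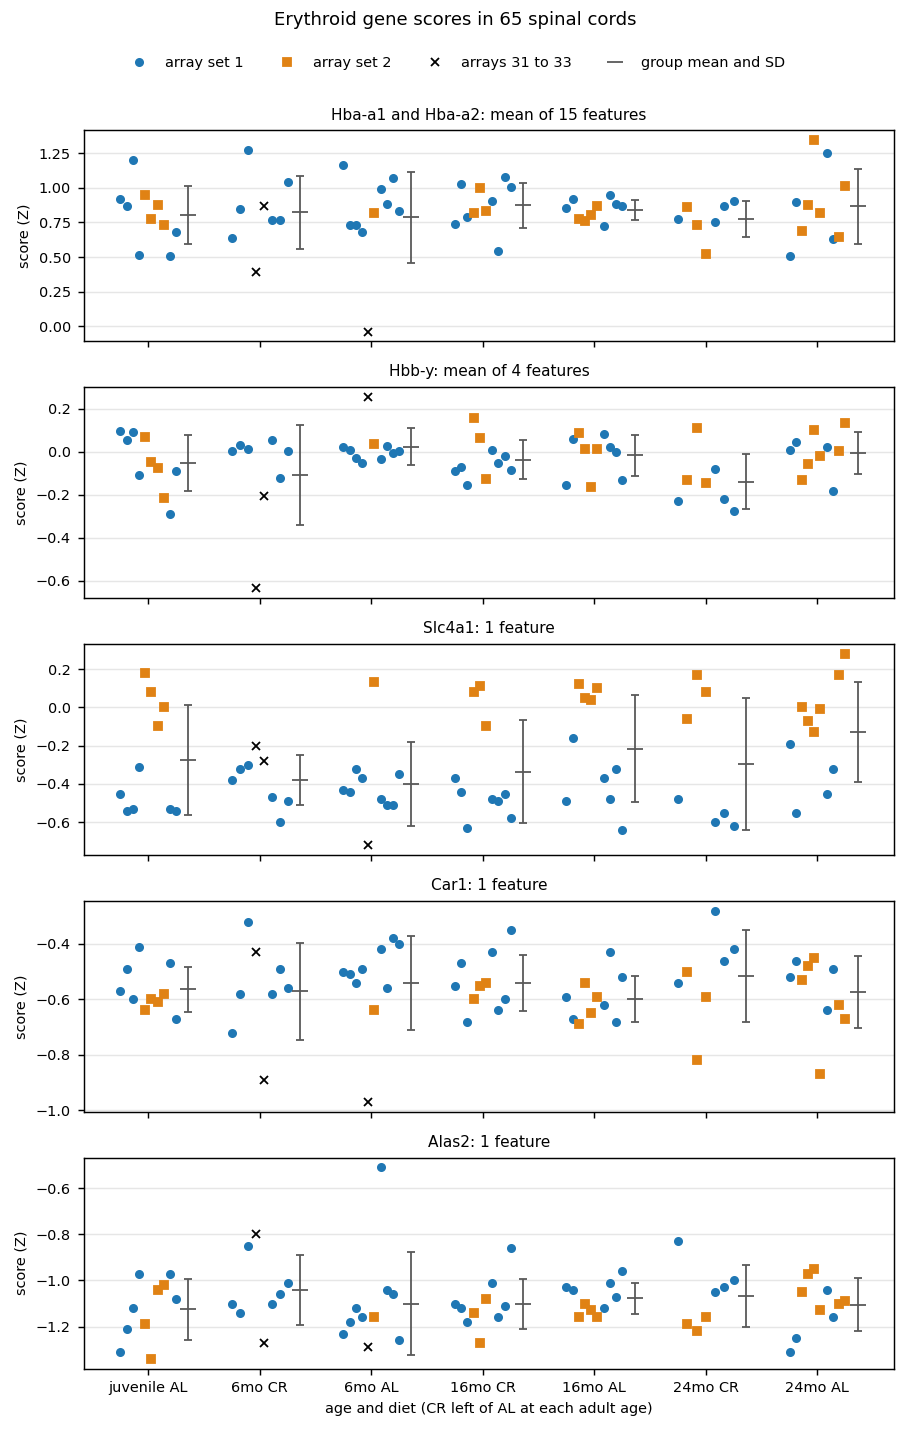
Scores (Z) of the erythroid genes in each of 65 mice by age and diet, with 1 panel per gene or mean of features, colours and symbols for the array sets, and bars for group means ± SD. The groups overlap in every panel, array 33 has the lowest alpha-globin value (-0.04), and Slc4a1 divides by array set.

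By age in AL mice, the directions of the alpha-globin features depended on array 33. The mean fitted difference was -0.0151 at 6 months against juveniles, 0.0535 at 16 against 6 months and 0.0274 at 24 against 16 months. For 24 against 6 months it was 0.0809, with 14 of 15 features higher and single differences between -0.094 (Hba-a2 feature 11536) and 0.209 (Hba-a1 feature 12725). The 95% intervals of these 15 features all held 0, and the widest reach was -0.292 to 0.479. Over all features 49.2% were higher in this comparison. Without array 33, an AL male of 6 months, the mean difference was 0.0879 at 6 months against juveniles, -0.0495 at 16 against 6 months and -0.0221 at 24 against 6 months, so each of the 3 changed sign. In the fit without arrays 31 to 33, 4 of 15 features were higher at 24 than at 6 months, and feature 11536 differed by -0.206 (limma adjusted p = 0.240). Within array set 1 the difference of 24 from 6 months was also negative, with a mean of 0.824 in 4 AL mice of 24 months and 0.887 in 8 AL mice of 6 months, a difference of -0.0632. Within set 2 the means were 0.898 in 6 mice of 24 months and 0.821 in the 1 mouse of 6 months.

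In CR mice the alpha-globin features were lower at 24 than at 16 months in all 15 features, with a mean of -0.0967, and none of arrays 31 to 33 lies in these groups. At 16 against 6 months the mean difference was 0.0823, with single features from 0.0297 to 0.128. It was 0.0124 without array 31 alone and 0.0063 without arrays 31 to 33, where 8 of 15 features were higher. The 15 features share their mice and vary together, so a shared sign does not amount to 15 results. None of these differences reached an unadjusted p under 0.05. For 24 against 6 months in CR mice the mean difference was -0.0144, with 5 of 15 features higher, and without arrays 31 to 33 it was -0.0904, with 2 of 15 higher.

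By diet, the mean difference of the alpha-globin features between CR and AL mice was 0.00549 at 6 months (-0.0215 without arrays 31 to 33), 0.0343 at 16 months and -0.0898 at 24 months. Over the 3 ages the mean difference was -0.0167 (-0.0256 without these arrays), and single features lay between -0.093 (Hba-a1 feature 15890) and 0.0767 (Hba-a2 feature 11536). The 24-month difference lay in array set 2, with means of 0.708 in 3 CR mice and 0.898 in 6 AL mice. In set 1 the means were 0.827 in 4 CR mice and 0.824 in 4 AL mice. The interaction of diet with the change from 6 to 24 months averaged -0.0953, and its 95% intervals held 0 for all 15 features. The average was 0.00765 without array 33 and -0.165 without array 31. By sex, the mean difference of adult males from adult females was -0.031, against 0.0247 without arrays 31 to 33.

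The Hbb-y features had negative fitted differences of CR from AL mice at each adult age, none past the adjusted threshold, and at 6 months these shrank or turned positive without arrays 31 to 33. Over the 3 ages the differences of CR from AL mice were -0.115 ± 0.0409 for feature 10656, -0.0655 ± 0.0332 for 10700, -0.153 ± 0.0457 for 10744 and -0.0786 ± 0.0338 for 10788 (fitted difference ± SE, 25 CR and 30 adult AL mice). The unadjusted limma p-values were 0.00684, 0.054, 0.00148 and 0.0239, and the adjusted p-values lay between 0.434 and 0.471. The plot of fitted differences shows these 4 features to the left of 0.

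**Figure D2:**
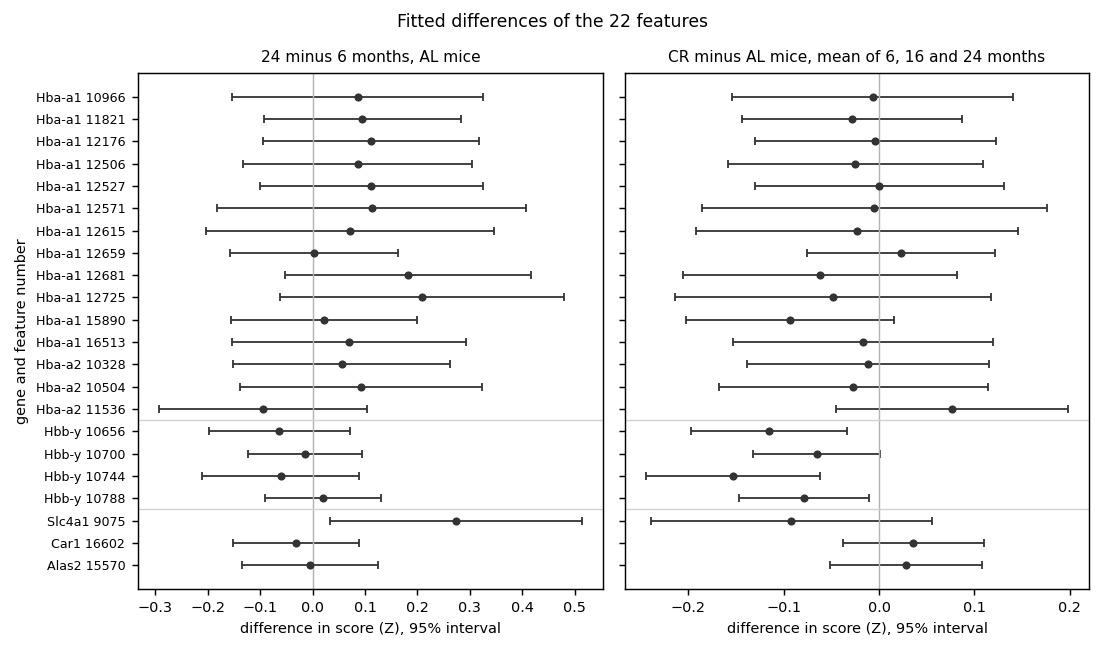
Fitted difference in score (Z) with its 95% interval for each of the 22 features, for 24 against 6 months in AL mice (left) and CR against AL mice over the 3 adult ages (right). The intervals of the 15 alpha-globin features hold 0 in both panels, that of Slc4a1 (0.273) lies above 0 on the left, and those of 3 Hbb-y features lie below 0 on the right.

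Feature 10744 had the largest of these Hbb-y differences. At 6 months its lowest, median and highest scores were -1.22, -0.56 and -0.47 in CR mice and -0.55, -0.51 and 0.18 in AL mice. At 16 months they were -0.69, -0.58 and -0.35 in CR mice and -0.70, -0.485 and -0.43 in AL mice. At 24 months they were -0.88, -0.67 and -0.36 in CR mice and -0.72, -0.47 and -0.35 in AL mice. The groups overlapped at every age, and the extremes at 6 months were arrays 31 (-1.22) and 33 (0.18).

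Without arrays 31 to 33, the Hbb-y differences of CR from AL mice at 6 months were -0.00125 (10656), 0.0253 (10700), -0.075 (10744) and 0.0118 (10788), in place of -0.176, -0.0867, -0.250 and -0.116. At 24 months, where none of these arrays lies, the differences were between -0.175 (10744) and -0.102 (10700), and at 16 months between -0.034 and -0.003. Over the 3 ages without these arrays they were -0.0569, -0.0282, -0.0946 and -0.0359 for 10656, 10700, 10744 and 10788, with unadjusted p of 0.103, 0.343, 0.013 and 0.215. Within array set 1 the mean of the 4 features at 24 months was -0.201 in 4 CR mice and -0.0263 in 4 AL mice, and within set 2 it was -0.055 in 3 CR mice and 0.00625 in 6 AL mice. At 16 months the within-set differences had opposite signs, -0.0446 in set 1 and 0.0433 in set 2.

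Averaged over the 4 Hbb-y features, juveniles had a mean of -0.0518 ± 0.131 (SD, n = 10). The mean was -0.108 ± 0.231 in CR and 0.023 ± 0.0860 in AL mice of 6 months, -0.0363 ± 0.0927 in CR and -0.0173 ± 0.0961 in AL mice of 16 months, and -0.139 ± 0.128 in CR and -0.00675 ± 0.0966 in AL mice of 24 months (SD). Within the juveniles, 5 mice of 33 to 44 days ranged from -0.2875 to 0.095 with a median of -0.09, and 5 mice of 17 to 21 days from -0.1075 to 0.0675 with a median of -0.0475. The 2 age ranges of juveniles overlapped. One further age step passed the unadjusted threshold, feature 10788 at 16 against 6 months in CR mice (difference 0.138, limma adjusted p = 0.711). It was 0.035 without array 31 and 0.0135 without arrays 31 to 33.

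Slc4a1 had the largest fitted difference of the members at 24 against 6 months in AL mice, and its scores divided by array set. Its lowest, median and highest scores were -0.55, -0.10 and 0.28 in AL mice of 24 months and -0.72, -0.435 and 0.13 in AL mice of 6 months. The fitted difference was 0.273 ± 0.120 (SE; limma adjusted p = 0.351), and the groups overlapped. The 21 arrays of set 2 had Slc4a1 scores between -0.13 and 0.28 (median 0.08), and the 41 arrays of set 1 between -0.64 and -0.16 (median -0.48), with no overlap. Such a complete separation of the sets held for 5.15% of all features and for no other member. Within set 1 Slc4a1 averaged -0.378 in 4 AL mice of 24 months and -0.426 in 8 of 6 months, and with the set as a covariate the difference of 24 from 6 months was -0.011. Age and diet groups otherwise averaged between -0.40 (AL 6 months) and -0.127 (AL 24 months), with an SD within groups of 0.274.

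Car1 and Alas2 varied little between groups. Car1 group means ran from -0.598 (AL 16 months) to -0.516 (CR 24 months), a span of 0.0823 against an SD within groups of 0.134. Alas2 group means ran from -1.13 (juvenile AL) to -1.04 (CR 6 months), a span of 0.0838 against an SD within groups of 0.145. In CR against AL mice over the 3 ages, Car1 differed by 0.0359 (95% interval -0.0379 to 0.110) and Alas2 by 0.0284 (-0.0513 to 0.108). Without arrays 31 to 33 these differences were 0.0246 and 0.00986.

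While the groups did not separate, single mice did. The alpha-globin mean was highest in the AL male replicate 3 of 24 months at 1.35, followed by the CR female replicate 2 of 6 months at 1.27 and the AL male replicate 4 of 24 months at 1.25. In the mice with 1.27 and 1.25, 15 of 15 alpha-globin features lay above their medians over all mice, and in the mouse with 1.35, 14 of 15 did. It was lowest in the AL male replicate 3 of 6 months (array 33) at -0.04 and the CR male replicate 2 of 6 months (array 31) at 0.389, with 15 of 15 features below their medians in both. Next came an AL juvenile male of 40 days at 0.505 and the AL male replicate 1 of 24 months at 0.509, on filters other than arrays 31 to 33. High and low mice were thus found in different ages, diets and sexes. In the mouse with 1.35, Slc4a1 was at -0.13, Car1 at -0.45 and Alas2 at -0.95, and in the mouse with 1.27 they were at -0.30, -0.32 and -0.85.

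**Figure D3:**
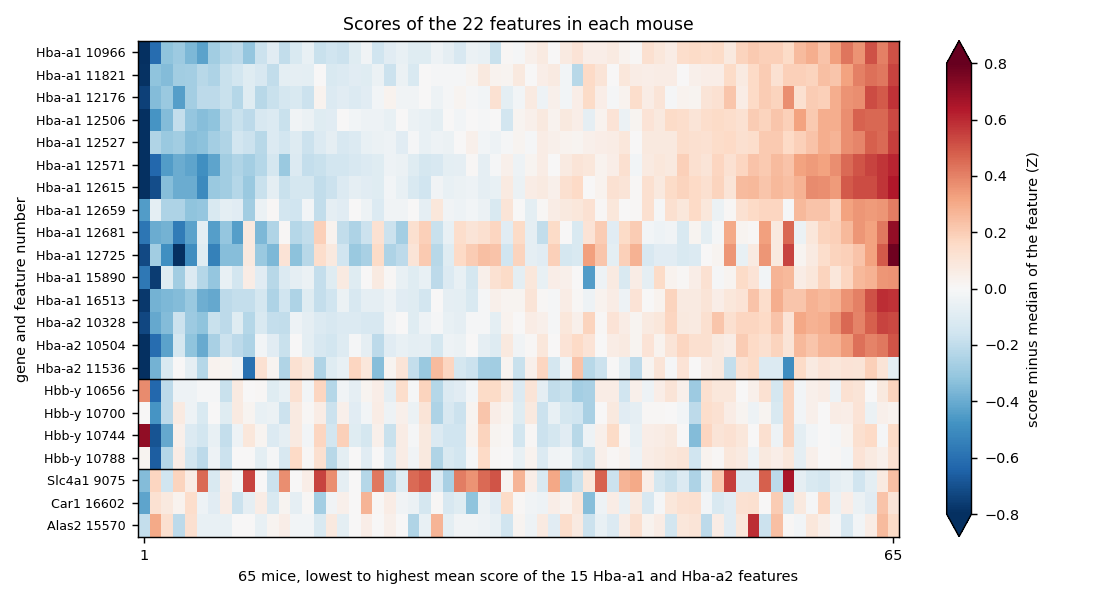
Score of each of the 22 features minus its median over the 65 mice (Z, colour), with mice ordered from the lowest to the highest mean of the 15 Hba-a1 and Hba-a2 features. The alpha-globin rows change together from left to right except feature 11536, the Hbb-y rows share a pattern of their own, and Slc4a1 shows a further one.

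The alpha-globin features varied together across mice once the 14 group means were removed. Of their 105 pairs, 103 had an adjusted permutation p under 0.05 for Pearson's r, and the median r was 0.886 (Spearman's rho 0.833, n = 65 mice, 231 pairs of members tested). The smallest adjusted p, 2.22e-05, is the smallest the permutations can give. The permutations moved residuals freely over the mice, so the p-values take no account of array sets, arrays 31 to 33 or feature number. Hba-a1 feature 10966 and feature 12615 had r = 0.987 and rho = 0.979 (permutation p, adjusted, 2.22e-05 and 2.51e-05), with r = 0.983 without the 2 mice farthest from the median. The median r of the pairs was 0.856 without the 2 farthest mice, 0.877 without arrays 31 to 33, 0.942 within array set 1 and 0.929 within set 2. It was 0.911 in juveniles, 0.915 at 6 months, 0.807 at 16 months and 0.879 at 24 months. The residual SD of these features across mice ran from 0.181 to 0.337, against 0.149 for the median feature of the filter.

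**Figure D4:**
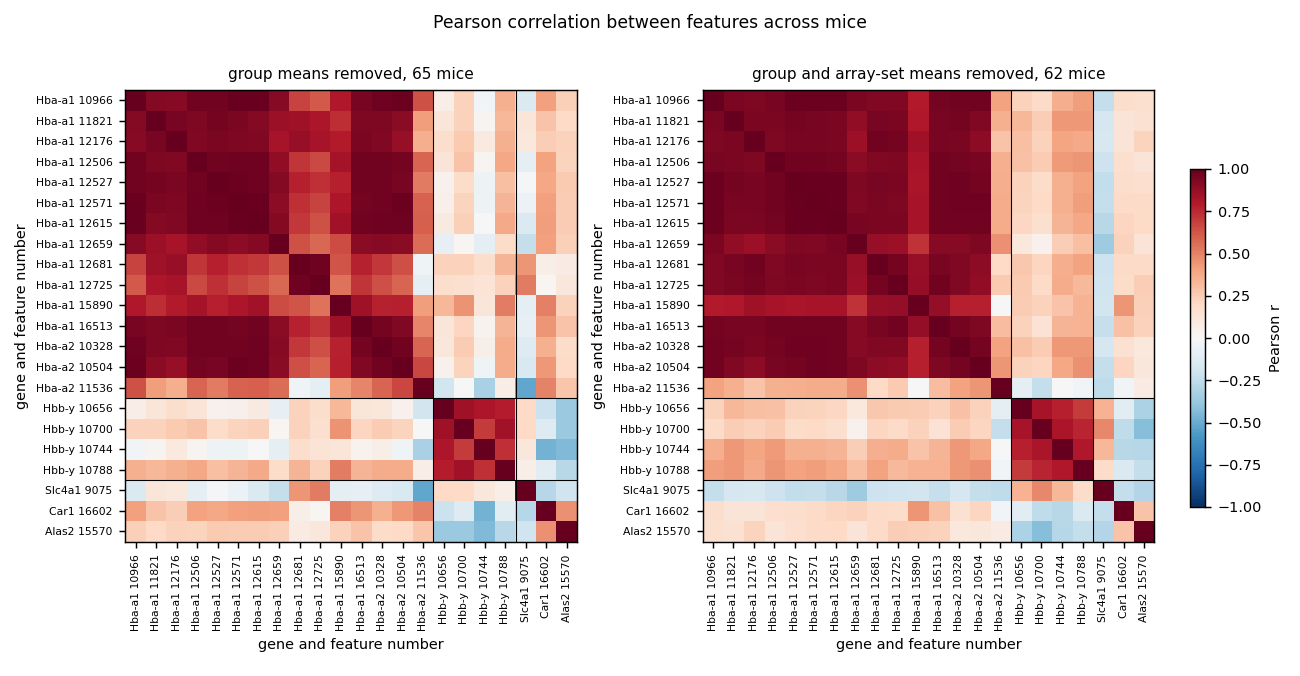
Pearson correlation across mice for each pair of the 22 features, after removal of the group means (left, 65 mice) and of the group and array-set means (right, 62 mice without arrays 31 to 33). The alpha-globin block is dark red apart from feature 11536, and features 12681 and 12725 join the block more closely on the right.

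A few alpha-globin features departed from the others, and they were picked out after their values had been seen. Hba-a1 features 12681 and 12725 correlated at 0.970 with each other but at 0.761 and 0.697 with the mean of the other alpha-globin features. These values were 0.759 and 0.695 without arrays 31 to 33, and 0.955 for both with array-set means removed. Both were higher in set 2, with medians of 0.87 and 0.93 there and of 0.63 and 0.62 in set 1. Hba-a2 feature 11536, which had the highest mean score, had r = 0.477 with the other alpha-globin features (0.159 without arrays 31 to 33, 0.342 with set means removed), and its median was 1.52 in set 2 and 1.79 in set 1. Without these 3 features, the remaining 66 pairs had r between 0.650 and 0.987.

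The Hbb-y features correlated with each other more than with the alpha chains, but these kinds of pair also differed in distance. The Hbb-y pairs lay 44 to 132 feature numbers apart, where medians over all feature pairs ran from 0.274 to 0.517. Pairs with an alpha-globin feature lay 152 to 5857 apart, where those medians ran from -0.0757 to 0.247. The 6 Hbb-y pairs had r between 0.699 and 0.844 and a median rho of 0.746 (adjusted permutation p = 2.22e-05 for each r, n = 65). The 60 pairs of an alpha-globin with an Hbb-y feature had a median r of 0.173, with 16 of 60 past the adjusted threshold. Their median r was 0.270 without arrays 31 to 33 and 0.289 with array-set means removed. For these 60 pairs, the share of all feature pairs at the same distance with an r as high had a median of 38.75%. Their calls are thus not set apart from the background of the filter. The 45 pairs of an alpha-globin feature with Slc4a1, Car1 or Alas2 had a median r of 0.230 (0.144 without arrays 31 to 33) and 17 of 45 past the adjusted threshold. For these 45 pairs that share had a median of 19.9%. With the mean of the alpha-globin features, r was -0.0227 for Slc4a1, 0.382 for Car1 and 0.240 for Alas2, against -0.0905, 0.188 and 0.181 without arrays 31 to 33 and -0.236, 0.205 and 0.185 with set means removed. Car1 and Alas2 correlated at r = 0.459 and rho = 0.371 (adjusted permutation p = 0.000385 and 0.00477), at r = 0.323 without arrays 31 to 33 and at r = 0.285 with set means removed. For the 3 pairs among Slc4a1, Car1 and Alas2, 33.9% to 67.4% of all feature pairs at the same distance had an r as high. The small p therefore does not set Car1 and Alas2 apart from other features of the filter.

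Features at some distances in feature number also varied together, whatever their gene. Over all features, the median r of residuals was 0.595 for pairs 22 feature numbers apart and 0.517 for pairs 44 apart, against 0.264 and 0.262 for pairs 43 and 45 apart. It was 0.364 for neighbours, 0.463 for pairs 2 apart and 0.305 for pairs 3 apart. For pairs 11, 500 and 1000 apart it was 0.144, 0.219 and 0.0902. The medians thus peaked at 2, 22 and 44 numbers and did not fall evenly with distance. The Hbb-y features lie 44 numbers apart in a row, and their r was as high or higher in 5.03% to 28.8% of all pairs at the same distance. The 75 alpha-globin pairs at least 500 numbers apart had a median r of 0.854. The medians of all pairs at each of those distances ran from -0.181 to 0.338, with a median of 0.0860. For these alpha-globin pairs, the share of all pairs at the same distance with an r as high had a median of 0.237%.

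**Figure D5:**
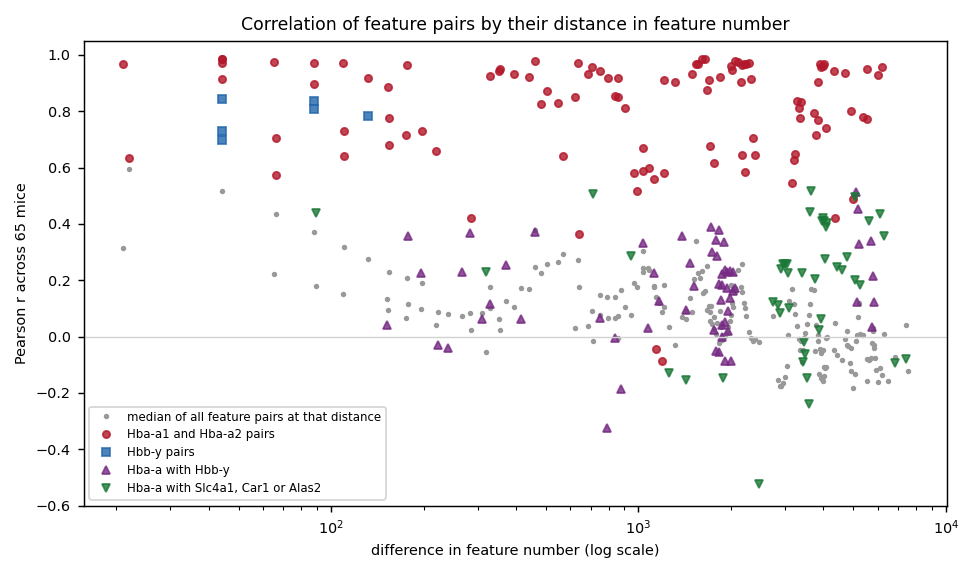
Pearson r across 65 mice for pairs of the members against their difference in feature number (log scale), with the median of all feature pairs at the same distances in grey. Most alpha-globin pairs stay high at distances of at least 500 numbers. The grey medians at the distances of these pairs run from -0.181 to 0.338, with a median of 0.0860. All 6 Hbb-y pairs lie at short distances, starting at 44 numbers.

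Other globin features on the filter were compared with the mean of the alpha-globin features. Of 3 features whose annotation holds several beta-globin symbols, 9050 had r = 0.901 and 12152 had r = 0.879. The third, 8983, had r = 0.345, which was 0.358 without arrays 31 to 33 and 0.853 with array-set means removed. Hba-x, the embryonic zeta chain, had a mean score of 0.892 and r = 0.495 (0.274 without arrays 31 to 33, 0.328 with set means removed). Neuroglobin (Ngb), the globin of neurons, had r = 0.393 and a mean score of -0.0449. These are descriptions over 65 mice that share filters, and no test was made.

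The other erythroid genes measured were few, and none of them was called in any comparison. Most of their correlations with the alpha-globin mean were smaller in size without arrays 31 to 33. Of 16 heme synthesis genes listed, 7 beside Alas2 had a feature each (Alas1, Urod, Uros, Ppox, Fech, Abcb10 and Slc25a37), and their r with the alpha-globin mean ran from -0.113 to 0.420 with a median of 0.217 (0.0716 without these arrays). For CR against AL mice over the 3 ages the median difference of this list with Alas2 was -0.018, against -0.00151 over all features, and without these arrays it was 0.0086, against 0.00133. Of 31 red cell membrane and enzyme genes, 7 beside Slc4a1 and Car1 had 8 features, with r from -0.195 for Cat, which encodes catalase, to 0.608 for Car2, the carbonic anhydrase paralog. Without these arrays the r of Car2 was 0.225, and the median of the 8 features was 0.0134 in place of 0.251. In the same comparison the peroxiredoxin gene Prdx2 differed by 0.0677 (limma adjusted p = 0.437) and feature 11542 of Bpgm, which makes bisphosphoglycerate in red cells, by 0.0911 (limma adjusted p = 0.467). These differences were 0.0399 and 0.0664 without the same arrays. Of 23 genes of erythroid transcription and signaling, 4 had 6 features (Kit, Kitl, Sox6 and Bnip3l), with r from -0.0817 to 0.580 and a median of 0.507 (0.206 without these arrays). Of 20 iron and heme breakdown genes, 4 had a feature each (Tfrc, Hmox2, Ireb2 and Slc40a1), with r from -0.200 to 0.366 (-0.114 to -0.003 without them).

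Markers of other cells that blood or adjoining tissue could bring were also set beside the alpha-globin mean. Of 28 leukocyte and platelet genes, 3 had 4 features, with r from 0.140 to 0.682 (-0.299 to 0.569 without arrays 31 to 33). The highest was the neutrophil gene S100a9, at 0.682 with these arrays and 0.569 without them. It differed by 0.219 at 24 against 6 months in AL mice (limma adjusted p = 0.366), and by 0.111 without them. Ltf, of neutrophil granules, had r = 0.140 and 0.158, and Cd34 0.181. Endothelial and mural genes (2 of 19, r -0.205 and 0.445) and muscle and bone genes (3 of 17 with 4 features, r -0.230 to 0.402) were as sparse, with r of 0.0295 to 0.112 and 0.0605 to 0.388 without arrays 31 to 33. The part of blood, of filter position or of array set in the alpha-globin pattern was not tested.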

How the data were processed

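Radiolabelled cDNA of each mouse was hybridized to 1 filter, and intensities were extracted with ArrayPro, as the sources give it. The authors then computed, and deposited, a score per feature, the Z score within each array. It runs from -8.58 to 3.32 over 8448 features and has no missing value. The log base and background treatment are not given in the sources used here, so differences are in Z units and not folds, and scores carry no depth. Being relative to the filter, they do not show changes that most features share.

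The members and gene lists were chosen with earlier results of these data known. Features were named by the platform annotation, of which 4875 held 1 symbol, 224 several and 3349 none. All member features are named, as are measured genes of the fixed lists by counts, with values for those with the smallest p. The 10 features with 1 symbol and the highest and the 5 with the lowest correlation with the alpha-globin mean are named too. Scores were fitted with limma 3.58.1 in R 4.3.3 (lmFit, eBayes), with 14 group means over 65 arrays, 51 residual degrees of freedom and both sexes weighted equally. Features with a Benjamini-Hochberg adjusted p under 0.05 were called. The fit was tested on simulated scores with independent normal noise for each feature. These held no array sets and no outlying arrays, so the fit was not tested for such filters. Each filter is a separate mouse. No pair of arrays was identical (0 pairs).

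The array sets were divided at the widest gap (10.7, next 2.21) of the first principal component (36.0% of variance), computed without arrays 31 to 33. Correlations used residuals from the group means and 100000 permutations in Python 3.11.15. Array 27 (AL male of 24 months, replicate 2), whose description differs from its title, was kept. Alternatives were other samples, covariates, scalings, filters and tests, among them the study's rule (mean Z above 0, z-ratio of at least 1.5, unadjusted p under 0.05). The ANOVA step that the paper applies after these cut-offs was not run, so counts by this rule are not those of the full procedure.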

Additional observations from a re-analysis of the deposited data

Results flagged for a closer look

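A value was picked out where, within the mice of 1 age and diet, the lowest or highest score of a member lay farther from its neighbour than Dixon's 95% limit allows. This held for 21 of 154 combinations of a member feature and a group of 7 to 10 mice, where chance picks out about 1 in 20. Of the 21, 15 were array 33 and 17 were arrays 31 to 33, so the values are not separate events.

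Array 33, the AL male replicate 3 of 6 months, had the lowest alpha-globin score of its group in all 15 features, in 12 of them past the limit. These 12 scores were -0.43 (10966), 0.04 (11821), 0.09 (12176), -0.22 (12506), -0.17 (12527), -0.74 (12571), -0.43 (12615), 0.39 (15890) and -0.18 (16513) for Hba-a1, and 0.01 (10328), -0.31 (10504) and 0.7 (11536) for Hba-a2. In the same mouse the Hbb-y features 10656 (0.47) and 10744 (0.18) were the highest of the group, and Car1 (-0.97) was the lowest.

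Array 31, the CR male replicate 2 of 6 months, had the lowest score of its group in all 4 Hbb-y features, past the limit in 10744 (-1.22) and 10788 (-0.62). The other 4 lay outside these arrays. Hba-a1 feature 12506 was at 0.38 in the CR female replicate 4 of 16 months, and Slc4a1 was at 0.13 in the only AL mouse of 6 months in array set 2. Car1 was at -0.87 in the AL female replicate 3 of 24 months, and Alas2 at -0.51 in the AL male replicate 4 of 6 months, the highest Alas2 score of all 65 mice. No explanation of these values was tested.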

How the results depend on the processing

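The count of members called was 0 in 176 of 178 alternatives other than leaving out a mouse and in 975 of 975 that left out 1 mouse. The exceptions were array weights and the study's rule. Slc4a1, Car1, Alas2 and Hbb-y feature 10744 had means below 0. Neither the study's rule nor the alternative limited to features with a mean Z above 0 could therefore call them. For these members a count of 0 in those settings was fixed in advance. Array weights called 2 of 22 members for 24 against 6 months in AL mice, beside 1829 of all 8448 features. These were Slc4a1 (0.314, limma adjusted p = 0.0249) and Hba-a2 feature 11536 (-0.254, limma adjusted p = 0.00555). The study's rule selected 1 member for CR against AL over the 3 ages, Hbb-y feature 10656, beside 92 of all 8448 features. Feature 11536 scored 1.11 to 1.63 in array set 2 and 1.59 to 1.96 in set 1. Set 2 held 6 of 10 AL mice of 24 months and 1 of 10 of 6 months, so age and set were partly confounded for this feature. With array set in the model and arrays 31 to 33 left out, the Slc4a1 difference of 24 from 6 months in AL mice was -0.011 and the difference of Hbb-y feature 10656 between CR and AL at 6 months was 0.0057, each with its sign turned. Leaving out 1 mouse moved the median r of the Hbb-y pairs between 0.732 (without array 31) and 0.832, and that of alpha-globin with Hbb-y features between 0.104 and 0.348 (without array 33). The cause was not tested.

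Counts over all features moved more. For 24 against 6 months in AL mice they were 6, against 1829 with array weights, 160 by the study's rule and 2 to 8 without 1 mouse. For 24 against 6 months in CR mice they were 2, against 284 by the study's rule and up to 126 without 1 mouse. By the study's rule they lay between 8 and 209 in the other comparisons, and the other alternatives gave 0 to 42. No paired analysis was possible because replicate numbers follow accession order and pair no mice. Rounds were derived here from the array numbers and are not given by the labels. Taken as a fixed block, they called 0 members and 0 to 13 features per comparison. The array sets change within rounds 2, 4 and 5, so this block did not fully account for them. Spread between 7 to 10 mice per group, and no depth, limits these values.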

Other observations

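Among non-member features with 1 symbol, those with the pattern across mice most like the mean of the alpha-globin features were Riok1 (r = 0.959), Mthfd1 (0.945), Top2b (0.943), Tgfbi (0.927), Guf1 (0.925), Zfp462 (0.924), Scp2 (0.918), Trim32 (0.901), Pygl (0.893) and Sqor (0.886), over residuals of 65 mice, and lay between 0.815 and 0.942 without arrays 31 to 33. The lowest among features with 1 symbol were Tspan31 (-0.663), Obox2 (-0.658), D11Wsu47e (-0.653), Pikfyve (-0.639) and Il17rc (-0.637), which lay between -0.354 and -0.523 without arrays 31 to 33. Over all features but the alpha-globin features, with or without a symbol, r ran from -0.728 to 0.985. The features of Riok1, Top2b and Tgfbi stand 22 numbers from an alpha-globin feature, a distance at which all feature pairs had a median r of 0.595, and that of Guf1 stands 1386 numbers away.

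In all, 61 of 8433 other features had r above 0.8 with the alpha-globin mean (0.723%). Of these, 37 had 1 symbol, 20 none and 4 several, and 12 of 61 (19.7%) lay within 88 numbers of an alpha-globin feature at the same of 22 positions, against 0.984% of all. The share above 0.8 was 33.3% of 24 features at a distance of 22, 20.0% of 20 at 44 and 0.546% of 8248 at over 220. Clone annotation and position were not separated further.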
